A study of Bos taurus with 18 samples.

Results

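Keratins are the intermediate filament proteins of epithelia. Each filament is built from dimers of a type I and a type II keratin, so a cell needs a partner of each type, and single-layered (simple) epithelia use a small set of them. KRT8 and KRT7 are the type II members of that set, and KRT18 and KRT19 are the type I members. KRT8 and KRT18 are the usual partners in simple epithelia and are widely used as markers of the trophectoderm, the outer epithelium of the blastocyst that goes on to form the placenta. The 4 genes were taken by name from the rows of the expression table, and all 4 of the listed genes were found among the 21668 genes it holds. The question was in which order the 4 genes came on between the oocyte and the blastocyst, and whether the partners did so together.

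RNA was sequenced from pools of 10 bovine oocytes or embryos, with 3 libraries for each of 6 stages. The oocyte groups were germinal vesicle (GV) oocytes and metaphase II (MII) oocytes matured in vitro, both German Simmental. The embryo groups were 4-cell, 8-cell and 16-cell embryos and blastocysts, all produced in vitro and labelled German Simmental x Brahman. None of the groups carried an engineered allele or an added treatment. Oocytes and embryos thus differ in breed as well as in stage, and the parts of breed and stage cannot be told apart where 4-cell embryos are compared with MII oocytes. Each blastocyst library was made from whole embryos, so that trophectoderm, inner cell mass and hypoblast contributed together, and fewer cells of a type and less RNA per cell cannot be told apart. The labels do not say whether the 3 pools of a stage came from separate collections, so p-values measure only the spread between these samples.

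The libraries held 2438473 to 11971840 reads assigned to genes. A scaled count is the number of reads of a gene divided by the size factor of its library, and 1 read was worth 0.602 to 3.02 scaled counts. The blastocyst label was checked on 14 trophectoderm markers that exclude the keratins. All 14 had reads in the blastocysts, but 12 also had reads in 16-cell and 13 in 4-cell embryos, so detection alone does not mark the stage. Their summed scaled count was 22398 to 39200 in blastocysts, against 7021 to 9800 in 16-cell embryos. PTGS2 alone had a mean of 11426 in blastocysts. The summed level of 13 oocyte markers was 166 to 453 in blastocysts, against 128111 to 159484 in GV oocytes. 8-cell replicate 2 and 16-cell replicate 1 had the fewest genes with reads of their stage. The numbers were 14081, 12393 and 14618 in the 8-cell and 11970, 12903 and 14146 in the 16-cell libraries, of a highest 15399. 16-cell replicate 1 was thus the lowest of its stage, although it held 7456788 reads, against 2438473 and 3763632 in replicates 2 and 3. Its Spearman correlation with these was 0.861 and 0.854, and theirs with each other 0.881. For 8-cell replicate 2 it was 0.873 and 0.858 with replicates 1 and 3, and theirs with each other 0.909. Some of the results for the 4 keratins and of the counts for the gene lists are given with and without 8-cell replicate 2 and 16-cell replicate 1. The others include both libraries. Reads after amplification are not independent molecules, and the intervals below cover counting error only. Transcript lengths were not used here, so levels are compared between libraries and not between genes.

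KRT8 and KRT18 were close to undetected up to the 4-cell stage and reached means of 20972 and 14795 scaled counts in the blastocyst. KRT8, the type II partner, had 2, 1 and 2 reads in the 3 GV libraries, 5, 1 and 20 in the MII libraries and 6, 2 and 0 in the 4-cell libraries. It had 47, 0 and 2 reads in the 8-cell libraries and 12, 34 and 37 in the 16-cell libraries. Up to the 8-cell stage the reads therefore came and went between pools of 1 stage, and the 16-cell stage was the first after the MII oocyte with KRT8 reads in all 3 libraries. The blastocyst libraries held 27869, 25617 and 12523 KRT8 reads.

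KRT18, the type I partner, was still sparser. The GV libraries held 2, 0 and 3 reads, the MII libraries 2, 0 and 2, and the 4-cell libraries 3, 0 and 0. The 8-cell libraries had 0, 0 and 8 reads and the 16-cell libraries 0, 11 and 4. The blastocyst was the first stage at which all 3 libraries had KRT18 reads, with 21657, 18122 and 7403.

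KRT19 followed another course. It was present in the oocyte, with 191, 157 and 159 reads in the GV libraries, 107, 100 and 30 in the MII libraries and 162, 95 and 13 in the 4-cell libraries. The 8-cell libraries held 84, 19 and 1 reads and the 16-cell libraries 0, 3 and 0. Blastocysts held 797, 1182 and 194 reads. Its mean scaled count was 146 ± 41.7 in GV oocytes, 65.3 ± 35.4 in MII oocytes, 57.7 ± 39.7 in 4-cell, 27.0 ± 32.9 in 8-cell and 3.02 ± 5.24 in 16-cell embryos, and 719 ± 607 in blastocysts (SD, n = 3 each). The lowest blastocyst library, at 201 scaled counts, lay just above the highest GV library, at 194.

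KRT7 had low counts at every stage before the blastocyst. The GV libraries held 10, 0 and 41 reads, the MII libraries 3, 18 and 5, the 4-cell libraries 6, 23 and 2 and the 8-cell libraries 80, 10 and 2. No KRT7 read was found in any of the 3 16-cell libraries, whose 13658893 reads together allow up to 3 reads. Blastocysts held 213, 148 and 109 reads.

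**Figure D1:**
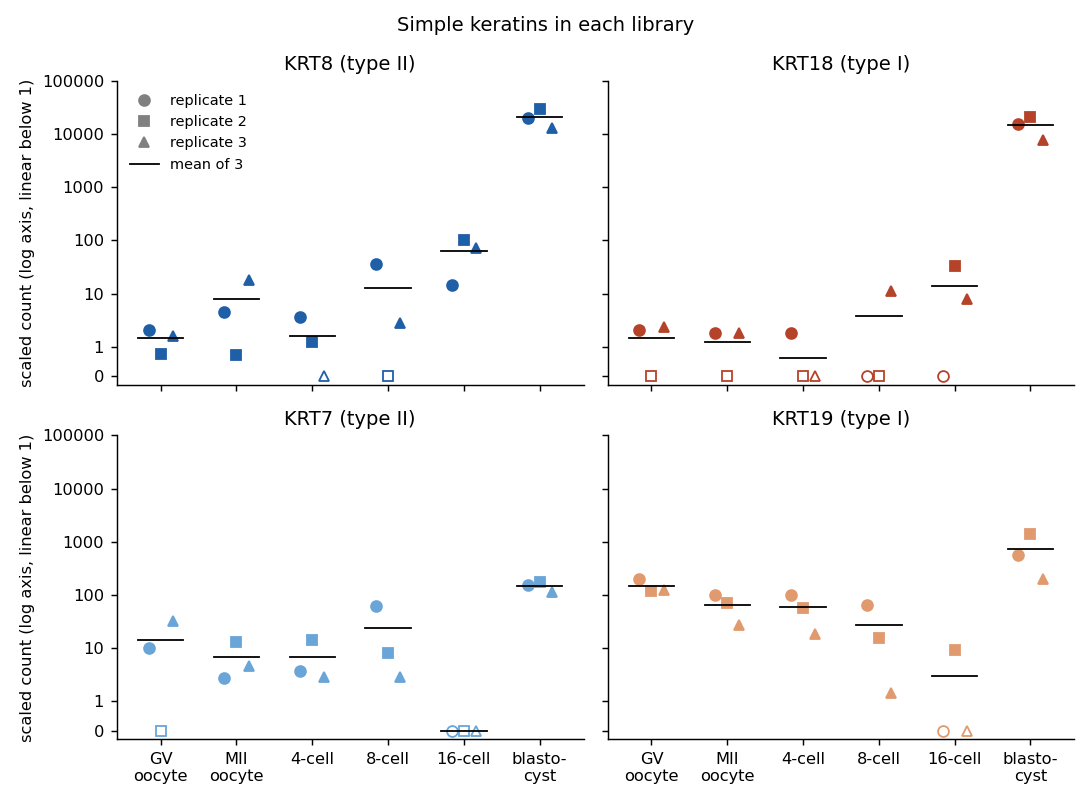
Scaled counts of KRT8, KRT18, KRT7 and KRT19 in each of the 18 libraries by stage, on an axis that is linear near 0 and logarithmic above. Points are libraries (a symbol for each replicate number, open at 0 reads) and black lines are means of 3 libraries. KRT8 and KRT18 stay low until a rise of several orders of magnitude in blastocysts, whereas KRT19 has reads in all GV libraries and its lowest values in 16-cell embryos, and KRT7 is at 0 in all 16-cell libraries.

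The composition of the keratin reads changed with stage. KRT19 made up 77.6% to 99.4% of the reads of the 4 genes in the GV libraries. In blastocysts it made up 0.959% to 2.62% and KRT7 0.328% to 0.539%, while KRT8 made up 55.1% to 61.9% and KRT18 36.6% to 42.9%. Together the 4 genes took 0.451%, 0.731% and 0.295% of all gene reads in the 3 blastocyst libraries and between 0.000161% and 0.00316% in the 15 libraries of the other stages.

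Expression was compared between stages with limma on the deposited log2-like values, with 1 estimate of the spread over all 18 libraries and Benjamini-Hochberg adjustment over the 17138 genes that had a read in at least 3 libraries. A gene was called at an adjusted p under 0.05, and differences are later minus earlier stage on the scale of the deposited values. All 4 genes varied over the 6 stages in the F test of limma, as did 67.0% of genes, with adjusted p of 4.7e-09 for KRT8, 6.1e-09 for KRT18, 0.0006 for KRT7 and 4.2e-05 for KRT19.

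All 4 keratins rose between the 16-cell embryo and the blastocyst, in a comparison in which 18.2% of all genes tested were called higher. KRT18 had 15456, 21256 and 7673 scaled counts in blastocysts, against 0, 33.3 and 7.95 in 16-cell embryos. The difference of 10.39 ± 0.99 (SE; limma adjusted p = 1.17e-07) ranked 1 of 17138 genes. KRT8 had 19889, 30047 and 12979 scaled counts in blastocysts, against 14.4, 103 and 73.5 in 16-cell embryos. Its difference of 8.52 ± 0.97 (limma adjusted p = 1.1e-06) ranked 12. The libraries of the 2 stages did not overlap for either gene, as in 21.6% of genes in that direction, and the ratio of mean scaled counts was 1077 for KRT18, on a 16-cell level of 15 reads in all, and 330 for KRT8. The KRT18 ratio was 3722 without 16-cell replicate 2 and 718 without 16-cell replicate 1, and the KRT8 ratio 238 to 477 over all libraries left out in turn.

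KRT7 and KRT19 rose in the same step. KRT7 had 152, 174 and 113 scaled counts in blastocysts, against 0 reads in the 16-cell libraries. With 3 reads set as the limit in each 16-cell library the mean was at least 23.5-fold higher in blastocysts. The difference of the deposited values was 6.02 ± 0.97 (limma adjusted p = 7.04e-05) and ranked 115. KRT19 had 569, 1386 and 201 scaled counts in blastocysts, against 0, 9.07 and 0 in 16-cell embryos. Its difference was 7.06 ± 0.96 (limma adjusted p = 1.03e-05) and ranked 45, but because the 16-cell stage held 3 KRT19 reads in all no fold is given. The 14 trophectoderm markers rose in the same step in 9 cases and fell in 1, and their median difference was 3.53, against 0.18 over all genes tested.

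Set against the 4-cell embryo, where KRT7 and KRT19 had more reads than at the 16-cell stage, their differences were smaller than those of KRT8 and KRT18. All 4 were called higher in blastocysts, as were 29.3% of genes, and their libraries did not overlap, as in 35.1%. The difference was 12.17 ± 0.97 for KRT8 and 12.12 ± 0.99 for KRT18, the highest and the second highest of 17138 (limma adjusted p = 2.4e-09 and 3.7e-09). KRT7 was higher by 3.95 ± 0.97 (limma adjusted p = 0.00194), at 146 ± 30.7 scaled counts in blastocysts and 6.77 ± 6.19 in 4-cell embryos (SD, n = 3 each), a ratio of 21.6, which was 45.6 without 4-cell replicate 2. KRT19 was higher by 3.39 ± 0.96 (limma adjusted p = 0.00579), a ratio of means of 12.5, which was 6.67 without blastocyst replicate 2 and 19.0 without 4-cell replicate 1. The comparisons with the 4-cell and the 16-cell embryo share the blastocyst libraries. Whether the genes differed from each other in the size of the rise was tested only for the partner comparisons below.

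Onset was defined as the first stage at which all 3 libraries exceed every library of all earlier stages. By that rule all 4 genes had their onset at the blastocyst, as did 8.63% of genes tested (1479). Counted by the first stage with a read in all 3 libraries, the genes came in another order: KRT8 and KRT19 had reads in all 3 GV libraries, KRT7 first in MII oocytes and KRT18 first in blastocysts. For KRT8 that early start rests on 5 reads in the 3 GV libraries.

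The step between the 8-cell and the 16-cell embryo was the first with a call among the 4 genes. KRT8 was called higher in 16-cell embryos, as were 14.8% of genes, and KRT7 lower, as were 16.3%. KRT8 had a mean of 63.6 ± 45.01 scaled counts in 16-cell and 12.9 ± 20.0 in 8-cell embryos (SD, n = 3 each), a difference of 2.67 ± 0.97 (limma adjusted p = 0.0403), and the libraries overlapped. The difference stayed above 0 whichever library was left out, but it no longer passed the threshold without 8-cell replicate 2 (1.73, limma adjusted p = 0.203), 8-cell replicate 3 (2.49, adjusted p = 0.0879), 16-cell replicate 2 (2.17, adjusted p = 0.137) or 16-cell replicate 3 (2.40, adjusted p = 0.108). KRT7 differed by -2.93 ± 0.97 (limma adjusted p = 0.0257), with 0 reads in 16-cell embryos, against 24.0 ± 32.2 scaled counts in 8-cell embryos, 80 of whose 92 reads came from replicate 1. The libraries did not overlap, as in 16.2% of genes in that direction. With 3 reads set as the limit in each 16-cell library, on average 6.21 scaled counts, the 8-cell mean was at least 3.87-fold higher. The highest of these limits was 9.07 scaled counts. Of the 8-cell libraries only replicate 1, at 61.1, lay above it, and replicates 2 and 3 were at 8.18 and 2.81. The KRT7 difference did not pass without 8-cell replicate 1 (-1.98, limma adjusted p = 0.149), nor without 16-cell replicate 2 (adjusted p = 0.0523) or 16-cell replicate 3 (adjusted p = 0.0536), where the difference was still -2.93. KRT18 differed by 1.23 ± 0.99 (limma adjusted p = 0.381) and KRT19 by -2.20 ± 0.96 (limma adjusted p = 0.0879), and neither was called. KRT19 was called lower without 8-cell replicate 3 (limma adjusted p = 0.0168) or 16-cell replicate 2 (0.0271). Without 8-cell replicate 2 and 16-cell replicate 1, the difference was 2.49 for KRT8 (limma adjusted p = 0.0572) and -3.18 for KRT7 (limma adjusted p = 0.0537), and neither passed the threshold.

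Across the longer interval between the 4-cell and the 16-cell embryo, KRT8 and KRT19 moved in opposite directions. In that comparison 21.7% of genes were called higher and 21.7% lower. KRT8 had 14.4, 103 and 73.5 scaled counts in 16-cell embryos, against 3.61, 1.21 and 0 in 4-cell embryos. The libraries did not overlap, as in 22.7% of genes in that direction, and the difference was 3.65 ± 0.97 (limma adjusted p = 0.00421). KRT19 had 0, 9.07 and 0 scaled counts in 16-cell embryos, against 97.6, 57.4 and 18.2 in 4-cell embryos, also without overlap, as in 23.7% of genes in that direction, and was lower by a difference of -3.67 ± 0.96 (limma adjusted p = 0.00383). KRT18 differed by 1.73 ± 0.99 (limma adjusted p = 0.17), and without 16-cell replicate 1, which had no KRT18 read, by 2.81 (limma adjusted p = 0.0246). In 16-cell replicates 1, 2 and 3 the summed scaled count of 10 fibroblast and theca markers was 108, 3425 and 4771. That of 28 cumulus and granulosa markers was 1747, 5112 and 10133. The part of such cells in the KRT8 and KRT18 values was not tested. KRT7 differed by -2.07 ± 0.97 (limma adjusted p = 0.0906), with 0 reads in every 16-cell library and reads in every 4-cell library. Replicates 1 and 3 of the 4-cell stage, at 3.61 and 2.80 scaled counts, lay under 9.07, the highest value of 3 reads in a 16-cell library.

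**Figure D2:**
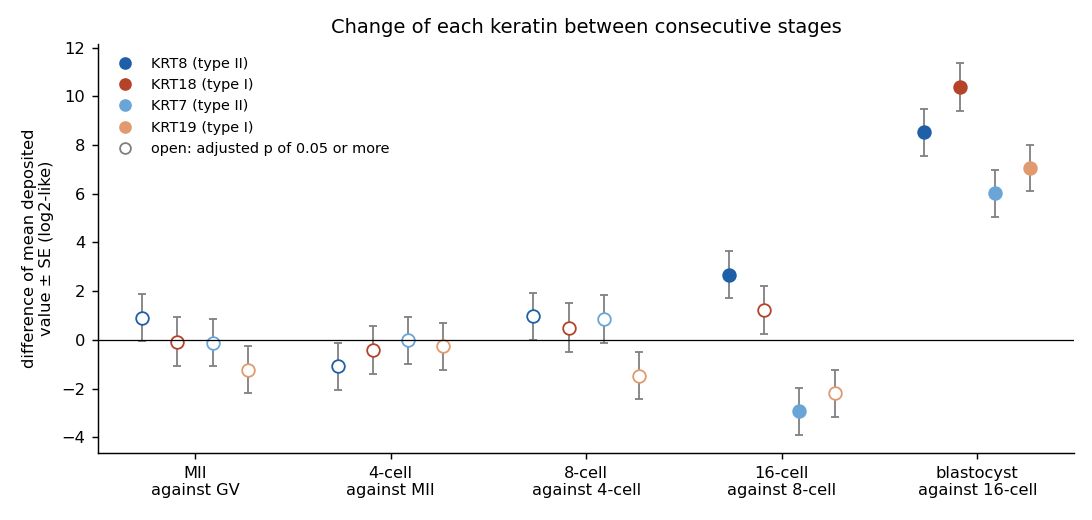
Differences of the deposited log2-like values between consecutive stages, later minus earlier, for the 4 keratins, with limma standard errors. Filled points passed an adjusted p under 0.05 and open points did not. Between blastocysts and 16-cell embryos all 4 keratins lie above 6, and in the preceding step KRT8 lies above 0 and KRT7 below it.

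None of the 4 genes was called between MII and GV oocytes, between 4-cell embryos and MII oocytes or between 8-cell and 4-cell embryos. No member had an unadjusted limma p under 0.05 in these comparisons, and voom called none. Over all genes, limma called 0.0992% higher and 0.613% lower in MII than in GV oocytes, 0.0642% and 0.729% in 4-cell embryos than in MII oocytes, and 8.64% and 4.13% in 8-cell than in 4-cell embryos. KRT19 had 97.9, 70.5 and 27.6 scaled counts in MII oocytes, against 194, 119 and 125 in GV oocytes. The MII libraries all lay below the GV libraries, as for 9.96% of genes, and the difference of -1.23 had a limma adjusted p of 0.89.

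Markers of the cumulus and granulosa cells that surround the oocyte were looked at beside the oocyte values of KRT19. Of 28 such markers, 24 were detected in MII oocytes and also 24 in GV oocytes, and their summed scaled count was 5184 to 7295 in MII and 4395 to 7192 in GV oocytes. FOXL2, TNFAIP6, LHCGR and COL3A1 were at 0 reads in GV oocytes. None of the 27 markers tested was called between the stages by limma, and their median difference was 0.02. Single markers lay on either side: chosen after their values were seen, FSHR, the receptor for follicle-stimulating hormone, had 0 reads in the 3 MII and 133 in the 3 GV libraries, whereas GREM1, an inhibitor of bone morphogenetic proteins, had 561 reads in MII and 253 in GV oocytes. Their part in the KRT19 values was not tested.

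The balance between partners was followed as the share of KRT8 in the reads of KRT8 and KRT18 together, which compares libraries and is not a molar ratio. In blastocysts KRT8 held 56.3% (95% Wilson interval 55.8% to 56.7%), 58.6% (58.1% to 59.0%) and 62.8% (62.2% to 63.5%) of the pair. In 16-cell embryos it held 12 of 12 reads, 75.6% (61.3% to 85.8%) of 45 reads and 90.2% (77.5% to 96.1%) of 41 reads. Every 16-cell library thus lay above every blastocyst library. Read for read, the blastocysts held 1.29, 1.41 and 1.69 KRT8 reads for each KRT18 read. The 8-cell libraries did not share a balance: replicate 1 had 47 KRT8 reads and no KRT18 read, and replicate 3 had 2 and 8.

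The difference between partners was tested library by library with exact two-sided permutation tests on the deposited values of KRT8 minus KRT18. It was 0.54 ± 0.20 in blastocysts and 2.41 ± 0.80 in 16-cell embryos (SD, n = 3 each), a change of -1.87 with an exact p of 0.1, the smallest that 3 against 3 libraries can give. With libraries exchanged only within a replicate number, the exact permutation p was 0.25, the smallest that 3 pairs can give. The difference was 2.41 ± 0.80 in 16-cell and 0.50 ± 0.51 in 4-cell embryos, a change of 1.91 with an exact p of 0.1. This comparison was added after the data had been seen. The 4-cell libraries together held 8 KRT8 and 3 KRT18 reads. With 0 reads of both genes, as in replicate 3, the difference is 0. The test thus cannot tell a change of balance from low counts. By pooled reads KRT8 held 72.7% of the pair in 4-cell embryos (Wilson interval 43.4% to 90.3%) and 84.7% (76.3% to 90.5%) in 16-cell embryos. In the 9 libraries of the 8-cell stage and later the difference was 1.31 ± 1.69, against 0.62 ± 0.69 in the 9 earlier libraries. The change of 0.69 did not pass the exact test (p = 0.28). The 9 earlier libraries held at most 3 KRT18 reads each, so the same limit applies. With the test of KRT7 minus KRT19 below, 4 such tests were made, and the p adjusted over them were 0.2 for the first and the second and 0.3 for the others.

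KRT7 and KRT19 were set beside each other in the same way, as the type II and type I members that are not part of the KRT8 and KRT18 pair. KRT7 held 21.1%, 11.1% and 36.0% of their joint reads in the 3 blastocyst libraries. At earlier stages with reads of both genes its share was 4.98% and 20.5% in GV replicates 1 and 3 (0 of 157 reads in replicate 2), 2.73%, 15.3% and 14.3% in MII oocytes, and 3.57%, 19.5% and 13.3% in 4-cell embryos. In the 8-cell libraries it was 48.8%, 34.5% and 66.7%, the last from 3 reads. KRT7 minus KRT19 was -1.88 ± 1.08 in blastocysts and -0.84 ± 1.46 in 16-cell embryos (SD, n = 3 each), a change of -1.04 with an exact permutation p of 0.3. The 16-cell value rests on 3 KRT19 reads and no KRT7 read.

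**Figure D3:**
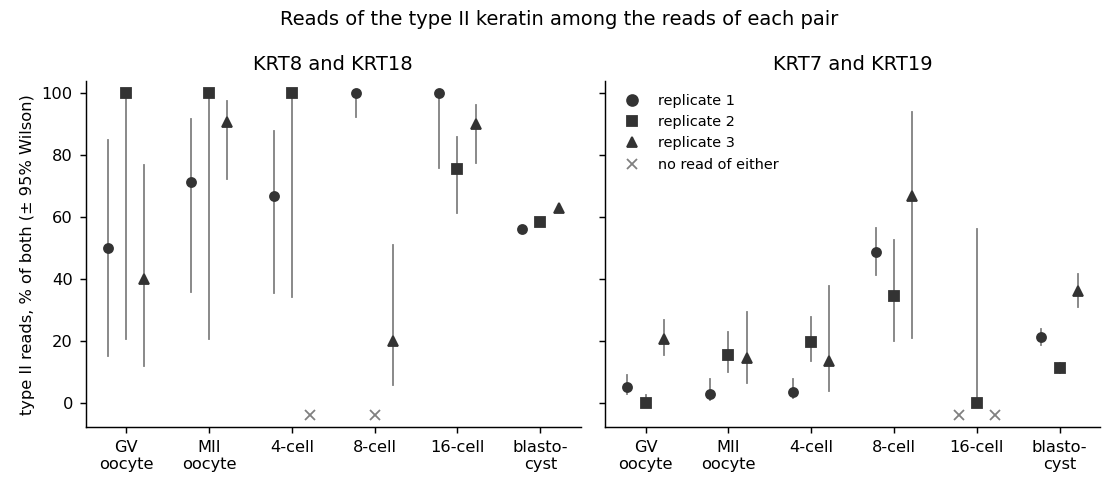
Share of type II reads in each pair, KRT8 of KRT8 and KRT18 and KRT7 of KRT7 and KRT19, in percent, by stage and library, with 95% Wilson intervals that cover counting error only. Libraries with no read of the pair have no point. The blastocyst libraries lie between 56.3% and 62.8% for KRT8 and KRT18, below the 16-cell libraries at 75.6% to 100%, and the intervals of the earlier stages are wide.

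The 3 blastocyst libraries differed among themselves. The highest level was 2.31 times the lowest for KRT8, 2.77 times for KRT18, 1.54 times for KRT7 and 6.90 times for KRT19. Of the 6621 genes with at least 100 reads in each blastocyst library, 10 had a larger ratio than KRT19 (0.151%). All 4 keratins were highest in replicate 2 and lowest in replicate 3, an order found in 16.0% of all genes tested. The summed trophectoderm markers were 39200 in replicate 1, 29746 in replicate 2 and 22398 in replicate 3, and the summed hypoblast markers 98719, 79133 and 124804. The 13 inner cell mass markers summed to 12356, 10630 and 11585. The part of the cell types in the spread of the keratins was not tested.

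The likeness of the 4 profiles was described with Pearson's r of the deposited values over the 18 libraries, which share the stage steps, with the blastocysts far from the rest. KRT8 and KRT18 had r = 0.96, and KRT18 ranked 7 of 17137 genes by likeness to KRT8, whereas KRT8 ranked 66 by likeness to KRT18. KRT7 and KRT19 had r = 0.76. Pairs across these had r between 0.47 and 0.68. Over the 15 libraries without the blastocysts, r was 0.59 for KRT8 and KRT18 and 0.56 for KRT7 and KRT19, and between -0.45 and -0.29 for the pairs across, at counts that are mostly under 100 reads.

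Genes without a symbol, at rank 4 for KRT8 and rank 5 for KRT19, were passed over in what follows. The genes most like KRT8 over the 18 libraries were TRIM63 (r = 0.98), RNF213 (0.97), SUSD2 (0.97), LCAT (0.96) and PLAC8 (0.96). TRIM63 is a muscle ubiquitin ligase, RNF213 a large ubiquitin ligase, LCAT the enzyme that esterifies plasma cholesterol, and PLAC8 a gene known from placenta. Those most like KRT18 were ANXA8 (0.98), an annexin, SUSD2 (0.98), SLC7A4 (0.98), H2AFJ (0.97), a histone H2A variant, and BCAM (0.97), a laminin-binding adhesion molecule. SUSD2 was thus named for both partners. The values for KRT7 were lower: DACT1 (0.92), an inhibitor of Wnt signalling, FCGR2C (0.88), TMEM62 (0.88), ARRDC3 (0.86) and SLC9A3R1 (0.85), a scaffold protein of the apical membrane. KRT19 was most like CD81 (0.93), a tetraspanin, RANBP1 (0.90), ES1 (0.90), PTPMT1 (0.90) and NDUFA8 (0.90), the last 2 of which encode mitochondrial proteins.

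The other keratins of the table gave a background for the 4. The table lists 44 further keratin rows, of which 34 had at least 1 read and 23 were tested. The summed scaled count of the 4 simple keratins was 20966 to 52863 in blastocysts and 14.4 to 145 in 16-cell embryos. The sum of the other keratins was 655 to 1886 in blastocysts and 236 to 511 in 16-cell embryos. Of the 23, 3 were called higher in blastocysts than in 16-cell embryos (KRT1, KRT80 and KRT5) and 1 lower (KRT23), beside 18.2% and 13.1% of all genes, and without 8-cell replicate 2 and 16-cell replicate 1 the counts were 2 and 1. These were named after their values were seen. The median difference of the 23 was 0, against 0.18 over all genes. Against 4-cell embryos, the comparison with most calls in this list, 7 were higher and 2 lower in blastocysts, beside 29.3% and 20.5% of all genes. Those higher with the smallest limma p were KRT1, KRT13 and KRT80, each with 0 reads in 4-cell embryos, and the 2 lower were KRT34 and KRT73, each with 0 reads in blastocysts.

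KRT5, the type II keratin of basal layers of stratified epithelia, was the one other keratin with reads in every library. It had 419, 1568 and 976 scaled counts in blastocysts, against 107, 278 and 233 in 16-cell embryos, a difference of 2.15 ± 0.65 (limma adjusted p = 0.0152) without overlap. Its GV libraries held 282, 156 and 66.0 scaled counts, so the gene was present throughout. KRT1, a type II keratin of differentiating epidermis, had 93.7 ± 24.3 scaled counts in blastocysts and 0 reads in 16-cell embryos (limma adjusted p = 7.2e-08). KRT13, a type I keratin of internal stratified epithelia to whose name 2 rows match, had 40.1 ± 19.1 scaled counts in blastocysts, 73.1 ± 30.6 in 16-cell embryos and 0 reads in 8-cell embryos in the row listed under that symbol.

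**Figure D4:**
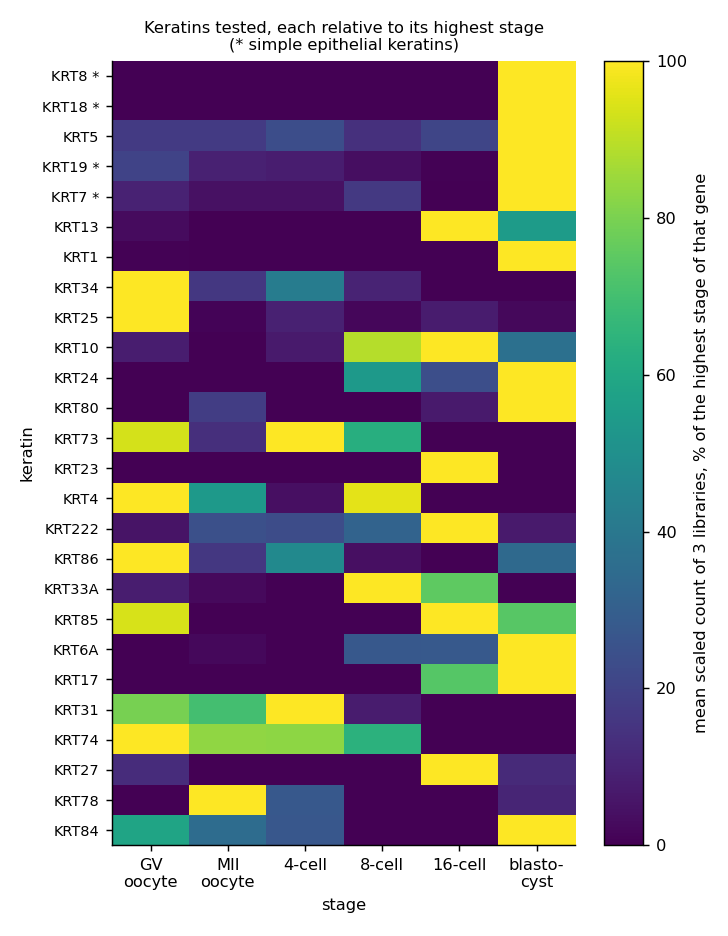
Mean scaled count of 3 libraries at each stage for the 26 keratins tested, in percent of the highest stage of that keratin, so that colours compare stages within a row and not keratins with each other. A second row that matches the name KRT13 is left out. The 4 simple keratins (asterisks) and 7 of the 22 others peak in blastocysts, and KRT8 and KRT18 are near 0 at all earlier stages.

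By gene order in the RefSeq table of the assembly ARS-UCD2.0, KRT18 and KRT8 are next to each other, a type I gene at the edge of the type II cluster. EIF4B, a translation initiation factor next to KRT18, had 2464 scaled counts in blastocysts and 2419 in 16-cell embryos, a difference of 0.03, and KRT78, next to KRT8, had 14 reads in all 18 libraries. KRT7 lies next to KRT80, another type II gene, which had 46.4 ± 29.2 scaled counts in blastocysts and 3.34 ± 3.07 in 16-cell embryos (limma adjusted p = 0.00655). KRT9, next to KRT19, had no reads.

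Keratin filaments attach to desmosomes and, through cytolinkers, to other cell structures. Of 24 genes listed for these structures 23 were found and tested. Between blastocysts and 16-cell embryos 11 of the 23 were called higher and 0 lower in blastocysts (limma), 0 were lower at an unadjusted p under 0.05, and voom also called 0 lower. The median difference was 1.39, against 0.18 over all genes, of which 18.2% were called higher and 13.1% lower. Values after ± for the gene lists are SD over 3 libraries. DSP, the desmoplakin that ties keratins to the desmosome, was singled out for that role after its values were seen: it had 4284 ± 486 scaled counts in blastocysts and 120 ± 135 in 16-cell embryos (limma adjusted p = 4.64e-06).

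Set against the 4-cell embryo, 16 of the 23 were higher and 1 lower in blastocysts, where 29.3% of all genes were called higher and 20.5% lower. DSC2, a desmosomal cadherin, had 1170 ± 416 scaled counts in blastocysts and 0 reads in 4-cell embryos (limma adjusted p = 1.51e-09). JUP, plakoglobin, had 2178 ± 737 in blastocysts, against 1 read in all 4-cell libraries (limma adjusted p = 6.78e-09), and DSG3, another desmosomal cadherin, 739 ± 61.0 in blastocysts, against 0 reads in 4-cell embryos (limma adjusted p = 2.6e-08). PKP4, an armadillo protein related to the plakophilins, was the one called lower, with 609 ± 94.6 in blastocysts and 2381 ± 178 in 4-cell embryos (limma adjusted p = 4.32e-06). DSC2 and JUP were already higher at the 16-cell stage: DSC2 had 674 ± 144 scaled counts in 16-cell embryos and 0 reads in 4-cell embryos (limma adjusted p = 1.5e-08), and JUP 354 ± 194 in 16-cell embryos, against 1 read in 4-cell embryos (limma adjusted p = 1.23e-06). DSG3 had 2 reads in the 16-cell stage.

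Of 25 listed genes that bind, fold or degrade keratins, 23 were tested. In blastocysts 9 were higher and 0 lower than in 16-cell embryos (limma), beside 18.2% and 13.1% of all genes, with a median difference of 0.91. At an unadjusted p under 0.05, 0 were lower, voom called 0 lower, and without 8-cell replicate 2 and 16-cell replicate 1 limma called 1 lower. Against 4-cell embryos 10 were higher and 3 lower, beside 29.3% and 20.5% of all genes. HSPB1, a small heat shock protein, had 5791 ± 2974 scaled counts in blastocysts and 159 ± 61.5 in 4-cell embryos (limma adjusted p = 1.15e-06). HSPA8, the constitutive HSP70 chaperone, had 42553 ± 9311 in blastocysts and 7105 ± 2403 in 4-cell embryos (limma adjusted p = 1.81e-06), and CSNK1A1, a casein kinase known to act on keratin filaments, 1093 ± 238 in blastocysts and 206 ± 58.3 in 4-cell embryos (limma adjusted p = 0.0002). PRKCE, a protein kinase C that phosphorylates KRT8 and KRT18, was lower, with 2.42 ± 4.19 in blastocysts and 67.0 ± 34.9 in 4-cell embryos (limma adjusted p = 0.000456). EPS8 and CASP6, a caspase that cleaves KRT18, were the other 2 called lower.

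Transcription factors of trophectoderm and other epithelia, listed with the splicing regulators ESRP1 and ESRP2, numbered 32, and all were tested. In blastocysts 16 were higher and 5 lower than in 16-cell embryos, beside 18.2% and 13.1% of all genes, and the median difference was 1.55. GATA2, a trophectoderm factor, had 1085 ± 132 scaled counts in blastocysts and 67.7 ± 51.8 in 16-cell embryos (limma adjusted p = 4.25e-07). GRHL1, a grainyhead factor of epithelia, had 1474 ± 232 in blastocysts, against 1 read in the 16-cell libraries (limma adjusted p = 2.79e-06), and DLX3, a homeobox factor of the placenta, 120 ± 63.0 in blastocysts, against 0 reads in 16-cell embryos (limma adjusted p = 4.53e-06). KLF4, an epithelial and pluripotency factor, was lower, with 1621 ± 206 in blastocysts and 8196 ± 2581 in 16-cell embryos (limma adjusted p = 2.38e-05). SP1, a general factor, had 1299 ± 315 in blastocysts and 4737 ± 1258 in 16-cell embryos, and EOMES, a trophoblast factor in the mouse, 1.62 ± 2.22 in blastocysts and 230 ± 294 in 16-cell embryos (limma adjusted p = 0.000105 and 0.00108), both lower.

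Other intermediate filament genes did not share one direction. Of 16 tested, 5 were higher and 4 lower in blastocysts than in 16-cell embryos, beside 18.2% and 13.1% of all genes, with a median difference of -0.23, and voom called 3 higher. Higher were LMNB1, a nuclear lamin, with 868 ± 265 scaled counts in blastocysts and 229 ± 180 in 16-cell embryos (limma adjusted p = 0.00589), BFSP1, a lens filament protein, with 55.9 ± 35.1 in blastocysts and 3.97 ± 6.88 in 16-cell embryos (limma adjusted p = 0.00567), and DES, the muscle filament protein desmin, with 10.9 ± 14.97 in blastocysts, against 0 reads in 16-cell embryos (limma adjusted p = 0.00467). The neurofilament genes were lower, with NEFH at 18.5 ± 15.3 in blastocysts and 589 ± 337 in 16-cell embryos, NEFL at 79.5 ± 14.96 in blastocysts and 540 ± 246 in 16-cell embryos, and NEFM, listed under its older symbol, at 7.34 ± 10.96 in blastocysts and 499 ± 168 in 16-cell embryos (limma adjusted p = 5.39e-06, 9.09e-05 and 0.000365). The fourth gene called lower was VIM, the mesenchymal filament protein vimentin, with 2.06 ± 1.22 in blastocysts and 591 ± 394 in 16-cell embryos (limma adjusted p = 0.00037), and it was named after its values were seen. VIM is also 1 of the 28 cumulus and granulosa markers, of which 27 were tested: 4 were called higher and 8 lower in blastocysts, with a median difference of -1.13 and summed scaled counts of 8854 to 20552 in blastocysts and 1747 to 10133 in 16-cell embryos. PTGS2, listed as a trophectoderm marker as well, made up most of the blastocyst sum. Its mean was 11426 in blastocysts and 13.0 in 16-cell embryos, and it was named after its values were seen. Of 10 fibroblast and theca markers 1 was higher and 2 were lower, with a median difference of -1.64 and summed scaled counts of 651 to 1303 in blastocysts and 108 to 4771 in 16-cell embryos. The part of such cells in the intermediate filament values was not tested.

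**Figure D5:**
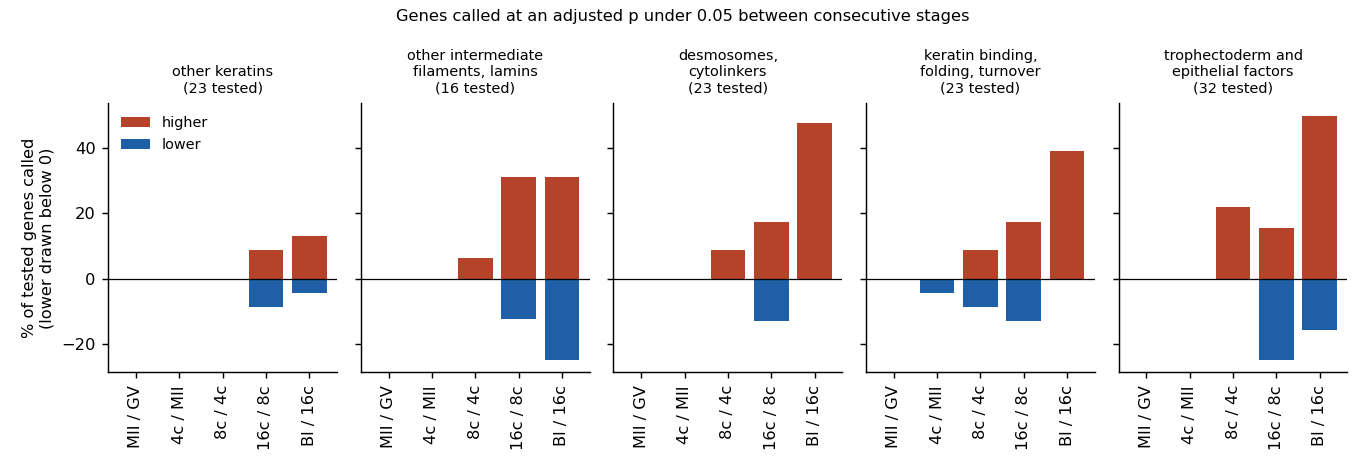
Percent of the tested genes of each list called higher (above 0) or lower (drawn below 0) by limma at an adjusted p under 0.05 in each of the 5 consecutive comparisons, later against earlier stage. The step to the blastocyst holds 11 of 23 desmosome and cytolinker genes higher and 0 lower, and 5 higher and 4 lower of 16 other intermediate filament genes.

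Without 8-cell replicate 2 and 16-cell replicate 1 the counts higher and lower between blastocysts and 16-cell embryos were 12 and 0 for desmosome and cytolinker genes, 9 and 1 for keratin-binding genes, 15 and 5 for the transcription factors, and 5 and 4 for the other intermediate filament genes. With library medians set equal, 10, 6, 11 and 4 genes of these lists were higher.

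In the step from the 8-cell to the 16-cell embryo, in which KRT8 and KRT7 had calls in opposite directions, 14.8% of all genes were called higher and 16.3% lower, and the lists held calls in both directions. Desmosome and cytolinker genes were higher in 4 cases and lower in 3, keratin-binding genes likewise in 4 and 3, the transcription factors in 5 and 8, and the other intermediate filament genes in 5 and 2. The shares of desmosome and keratin-binding genes were near those of all genes. Without 8-cell replicate 2 and 16-cell replicate 1 the transcription factors were higher in 2 cases and lower in 8. The counts were then 5 and 2 for desmosome and cytolinker genes, 4 and 2 for keratin-binding genes and 4 and 2 for the other intermediate filament genes. Of the other keratins KRT13 and KRT23 were higher and KRT73 and KRT34 lower in 16-cell embryos, named after their values were seen. Both voom and the fit without these 2 libraries called 3 keratins higher and 0 lower. KRT34 and KRT73 had 0 reads in 16-cell embryos, against 14 reads of KRT34 and 30 reads of KRT73 in 8-cell embryos.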

How the data were processed

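The authors deposited 1 table of log2-like, variance-stabilised values for 21668 genes and 18 libraries, per the submitters' processing notes. The tools these list are TopHat2 2.0.3, CASAVA 1.6, DESeq and HTSeq, and the build is UMD3.1. The treatment of multiply mapped reads is not given in the sources used here. KRT8 and KRT18 have many processed pseudogenes in human, and their counts are uncertain to the degree that bovine copies share reads. The kit does not mark strand.

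The transform was inverted, and all 390024 deposited log2-like values gave whole reads within 1e-08. Tests were run on the deposited values with limma 3.58.1 (trend) in R 4.3.3. The exact permutation tests went through all assignments of libraries to the groups, and the Wilson intervals were computed with scipy 1.17.1. The scripts were tested on simulated data. Members and gene lists were chosen with earlier results of these data known. Each list names the 3 called genes with the smallest limma p in each direction, in the comparison with most calls; the 3 other keratins with the highest mean are named as well, and other names are said to be chosen after their values were seen.

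Replicate numbers come from the labels. For blastocysts and 16-cell embryos the deviations of same-numbered libraries correlated at 0.108 to 0.134. Whether the numbers pair these libraries is not settled by such low values. The main tests do not use the numbers, and a replicate block was run as an alternative. Alternatives were voom, other scalings and filters, array weights, fits on the stages compared, a replicate block and leaving out each library.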

Additional observations from a re-analysis of the deposited data

How the results depend on the processing

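The counts of 4 keratins higher and 0 lower in blastocysts, against both 16-cell and 4-cell embryos, held in all settings run. Of 272 gene values counted under alternatives, 251 kept their direction and side of the threshold, 14 fell short of it and 7 newly passed it, and none changed sign. These cover the comparisons that involve 16-cell embryos or blastocysts, and KRT19 between MII and GV oocytes. The other gene values of the steps up to the 8-cell stage, where differences were small and not called, were left out of this count. The calls between 16-cell and 8-cell embryos were the least stable. The 1 keratin higher became 0 with voom, with array weights, with only the stages compared and without 8-cell replicate 2 and 16-cell replicate 1, and was 0 to 1 when each library was left out. The 1 keratin lower became 0 with array weights, with only the stages compared and without the same 2 libraries, and was 0 to 2 when each library was left out. With the replicate block it became 2, since KRT19 was then called (limma adjusted p = 0.0389). Between 16-cell and 4-cell embryos the 1 keratin higher became 2 without those 2 libraries and was 1 to 2 when each library was left out, and the 1 lower became 2 with library medians set equal and with only the stages compared. Fewer samples entered the fits on the stages compared; otherwise the cause was not tested. The replicate block changed no other call of the 4 keratins. Among the lists it moved counts by at most 1, as with the transcription factors higher in blastocysts than in 16-cell embryos (17, against 16 without it), and with the block the permutation p of KRT8 minus KRT18 between blastocysts and 16-cell embryos was 0.25, the smallest 3 pairs can give. Over the 21 pairs tried, correlations were -0.016 to 0.202, and in 15 of them a library correlated best with its own number. All 3 did so for blastocysts against 16-cell embryos, at 0.108 to 0.134. The same held for 16-cell against 8-cell embryos, at 0.033 to 0.107, and for 8-cell against 4-cell embryos, at 0.017 to 0.062. Whether the numbers pair the libraries of these stages is not settled by such low values. In the remaining comparisons it was 1 or 2 of the 3, and the numbers are not shown to pair libraries there. Setting library medians equal gave a median difference over all genes of -0.17 between blastocysts and 16-cell embryos (0.18 as deposited) and -0.33 between blastocysts and 4-cell embryos (0.39 as deposited), and all 4 keratins stayed higher. Below the blastocyst stage most keratin values rest on under 100 reads and vary between pools of a stage, and the parts of depth and of the pools in that spread were not tested.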
